A study of Homo sapiens with 6 samples.

Results

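Haem and iron-sulfur clusters take up much of the iron that enters the mitochondrion, and 34 genes that make, break down or move them were compared in DMS-53 human lung cancer cells treated with iron chelators. The genes were listed by function: 7 of haem synthesis, 4 of haem breakdown, 6 carriers of haem or mitochondrial iron, 12 of mitochondrial iron-sulfur cluster assembly and 5 of cytosolic cluster assembly. A probe set named for the gene alone was found for 33 of the 34, and all 33 passed the filter on dim signal, out of 16868 genes tested. They hold 76 of the 54675 probe sets on the array, of which 69 passed the filter. NUBP2, a cytosolic assembly factor, was not analysed here.

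The cells were kept for 24 h with Dp44mT at 25 µM, with DFO at 250 µM, or in RPMI medium alone as control, and each group has 2 Affymetrix arrays, numbered by set 1 and set 2. Dp44mT is a thiosemicarbazone that binds iron and copper and enters cells readily, and DFO (desferrioxamine) is a siderophore that enters poorly. All groups are 1 cell line. Nothing in the labels says that the sets were separate cultures. The p-values therefore measure array-to-array spread, which could be technical. Because both chelators are set against the same 2 control arrays, their differences from control are not independent and are given side by side.

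Haem is built from glycine and succinyl-CoA by a chain of enzymes that starts and ends in the mitochondrion, where ferrochelatase inserts iron into the porphyrin ring. ALAS1 catalyses the first step outside red blood cell precursors, and haem itself represses it. Iron-sulfur clusters are built on the scaffold ISCU with sulfur released by NFS1, then passed by chaperones and carriers to enzymes of respiration, lipoate synthesis and DNA repair.

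The set 2 chelator arrays stood apart from the rest before any gene was examined. Median intensities as deposited, set 1 given before set 2, were 83.6 and 49.9 with Dp44mT, 85.5 and 63.0 with DFO, and 88.9 and 88.8 in control. Values were therefore quantile normalized on the log2 scale, and all levels and differences below are on that scale unless called deposited intensities. All 9 of the measured neuroendocrine markers and 4 of 4 epithelial markers were above the filter. So were 6 of 6 fibroblast, 3 of 4 endothelial, 2 of 3 leukocyte and 3 of 4 erythroid markers with a probe set. Passing the filter therefore does not tell the cell type. No marker named here was listed at 0. The neuroendocrine list lay mostly below control: 7 of 9 with Dp44mT (6 with both arrays below both control arrays, median −0.50) and 8 of 9 with DFO (6 likewise, median −0.35). Of all genes, 33.1% lay wholly below control with Dp44mT and 30.0% with DFO. The 1 called lower with each chelator was INSM1 and the 1 called higher was ENO2. Over all genes 1.46% were called lower and 1.91% higher with Dp44mT, and 0.0593% and 1.04% with DFO. ENO2 was higher on all chelator arrays than on the control arrays (11.41 and 11.63 with Dp44mT, 11.16 and 11.31 with DFO, 9.43 and 9.55 in control), and INSM1 was lower (9.30 and 8.82 with Dp44mT, 10.30 and 10.15 with DFO, 12.17 and 12.68 in control). The summed deposited intensity of 6 fibroblast markers was 1285 and 1732 with Dp44mT, 1235 and 1837 with DFO, and 1573 and 767 in control, so within set 2 it was higher with the chelators and within set 1 it was not. The 4 endothelial markers summed to 707 and 1102 with Dp44mT, 881 and 1158 with DFO, and 862 and 411 in control, also higher with the chelators within set 2. Of 7 erythroid markers 4 had a probe set, with summed intensities of 711 and 430 with Dp44mT, 587 and 552 with DFO, and 762 and 811 in control, and the erythroid synthase ALAS2 had 35 and 39.5 with Dp44mT, 17.4 and 32.8 with DFO, and 39.1 and 40.8 in control. Leukocyte markers, with 3 of 5 on the array, summed to between 121 and 162 on every array. The part of the brightness difference and of these markers in the results was not tested.

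Of the 33 genes, ALAS1 and ISCA1 rose with Dp44mT and none fell, and none passed the test with DFO. A call here is a Benjamini-Hochberg adjusted p under 0.05 in limma's moderated test over all 16868 genes. The 2 of 33 called with Dp44mT stand beside 3.37% of all genes (1.91% higher and 1.46% lower), and the 0 of 33 with DFO beside 1.10% (1.04% higher and 0.0593% lower), so neither count is far from the background. At an unadjusted p under 0.05 there were 13 members with Dp44mT and 7 with DFO, of 4061 and 2250 such genes in all. Most members lay below control on the normalized scale: 22 of 33 with Dp44mT and 24 of 33 with DFO had a negative difference, with medians of −0.25 and −0.24 against 0.03 and −0.03 over all genes. In bulk RNA, fewer cells of a type and less RNA per cell cannot be told apart.

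The 2 chelator arrays lay wholly above the 2 control arrays for 8 members and wholly below for 16 with Dp44mT, where 30.3% and 33.1% of all genes did so. With DFO the counts were 7 above and 18 below, where 17.1% and 30.0% of all genes did so. The share of members lying wholly below was thus 48.5% with Dp44mT and 54.5% with DFO. The medians moved with the set and with the scale. The median member differed from its set's control by −0.08 in set 1 and −0.36 in set 2 with Dp44mT, and by −0.17 in set 1 and −0.26 in set 2 with DFO. Without the set 2 Dp44mT array the median Dp44mT difference was −0.021, and on the deposited scale it was −0.86, where the median of all genes was −0.50.

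**Figure D1:**
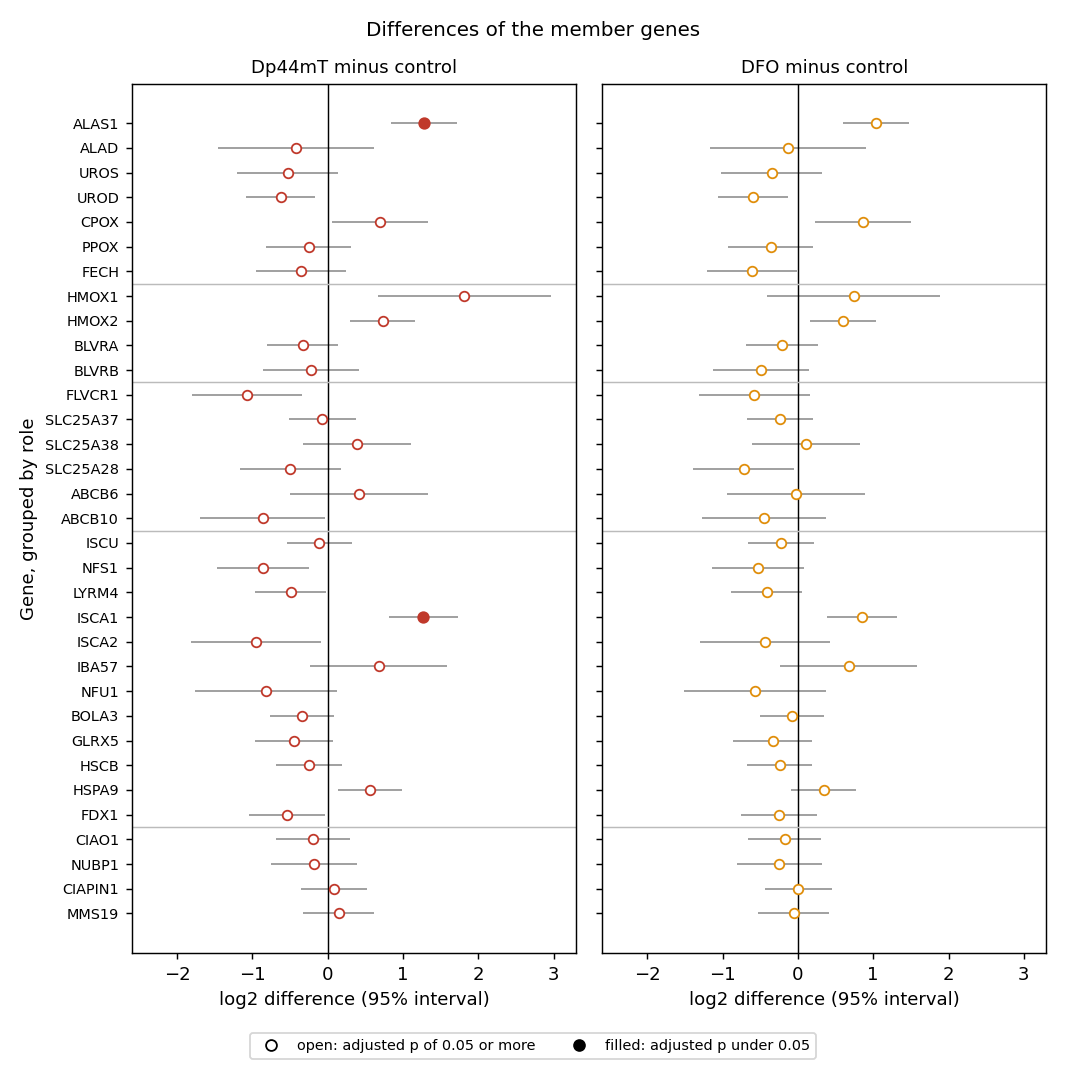
Log2 difference of each of the 33 genes from control with Dp44mT (left) and DFO (right), n = 2 arrays per group, with the 95% interval of limma's moderated test as a line and grey rules between roles. ALAS1 and ISCA1 with Dp44mT are the filled points, and 22 points on the left and 24 on the right lie below 0.

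ALAS1, which makes 5-aminolaevulinate and sets the pace of haem synthesis outside erythroid cells, was the haem synthesis gene that passed the test. Its upstream sequence is shown because the enzyme is the main point of control of the pathway. The 250 bases before its RefSeq start lie at chr3:52197833-52198082 on the plus strand of GRCh38.p14 and, written 5′ to 3′, hold none of the motifs searched.
ALAS1: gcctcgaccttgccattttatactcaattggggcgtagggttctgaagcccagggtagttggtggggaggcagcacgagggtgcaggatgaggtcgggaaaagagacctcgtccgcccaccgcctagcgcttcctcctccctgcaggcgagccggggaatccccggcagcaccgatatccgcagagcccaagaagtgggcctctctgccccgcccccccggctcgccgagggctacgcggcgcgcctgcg
The normalized log2 value of ALAS1 was 10.16 and 10.01 with Dp44mT, 9.92 and 9.76 with DFO, and 8.83 and 8.78 in control. All 4 chelator arrays lay above both control arrays, and the groups did not overlap. With Dp44mT the level was 2.42-fold that of control (log2 difference 1.28, SE 0.17, 95% interval 0.84 to 1.71, limma adjusted p = 0.0322). With DFO it was 2.04-fold (log2 difference 1.03, SE 0.17, interval 0.59 to 1.47), which did not pass after adjustment (limma adjusted p = 0.0863).

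The size of the ALAS1 difference depends on the scaling of the dim arrays. Its deposited intensities were 1259 and 548 with Dp44mT, 1313 and 610 with DFO, and 535 and 563 in control, so before normalization the set 2 chelator arrays were close to the set 2 control, while those of set 1 were over the set 1 control. Within set 1, where array medians were alike, the normalized difference was 1.33 with Dp44mT and 1.08 with DFO. On the deposited scale the Dp44mT difference was 0.59 (limma adjusted p = 0.621), where the median of all genes was −0.50, and with array medians subtracted it was 0.96 (adjusted p = 0.230). Leaving out any 1 of the 6 arrays ended the ALAS1 call, with limma adjusted p of 0.0555 to 0.337 and differences of 1.20 to 1.35.

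The other 6 enzymes of haem synthesis did not pass the test in either comparison. CPOX, the coproporphyrinogen oxidase of the mitochondrial intermembrane space, had 8.79 and 8.45 with Dp44mT, 9.06 and 8.53 with DFO, and 7.90 and 7.97 in control. The chelator arrays were all above the control arrays, with differences of 0.69 for Dp44mT (interval 0.05 to 1.33, limma adjusted p = 0.183) and 0.87 for DFO (interval 0.23 to 1.5, adjusted p = 0.251). On the deposited scale its Dp44mT difference was 0.05. UROD, the decarboxylase of the preceding cytosolic step, had 9.64 and 9.38 with Dp44mT, 9.61 and 9.47 with DFO, and 10.13 and 10.14 in control. Here the chelator arrays all lay below control, by 1.54-fold with Dp44mT (limma adjusted p = 0.126) and 1.51-fold with DFO (adjusted p = 0.268), and all 3 of its probe sets had the same sign.

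FECH, the ferrochelatase that inserts iron and itself carries an iron-sulfur cluster, had 10.18 and 9.66 with Dp44mT, 9.76 and 9.57 with DFO, and 10.21 and 10.33 in control. Its Dp44mT arrays differed from their set's control by −0.04 in set 1 and −0.68 in set 2, and the differences of the means were −0.36 for Dp44mT and −0.61 for DFO (limma adjusted p = 0.378 and 0.370). ALAD, which condenses 5-aminolaevulinate, had 7.29 and 6.46 with Dp44mT and 7.60 and 6.72 with DFO, a wide spread around the 7.32 and 7.27 of control. UROS, which closes the ring, had differences of −0.53 and −0.35, and PPOX, the oxidase before FECH, of −0.25 and −0.36, for Dp44mT and DFO in that order. The 7 genes of haem synthesis therefore had medians of −0.36 with Dp44mT and −0.35 with DFO, with ALAS1 and CPOX above 0 and the other 5 below in both.

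The upstream bases of CPOX are shown with those of HMOX2 below because they are the genes of haem synthesis and breakdown that hold the hypoxia core ACGTG and had all 4 chelator arrays above control. Of the other members that hold it, IBA57 and HSPA9 also had all 4 above and LYRM4 had all 4 below. PPOX, SLC25A38, ABCB6 and CIAPIN1, which hold it too, overlapped control in at least 1 comparison. ALAS1 and ISCA1, the genes called with Dp44mT, had all 4 above and do not hold ACGTG in these bases. ISCA1 holds the other hypoxia core searched, GCGTG. In haem synthesis and breakdown GCGTG was held by ALAD, FECH, PPOX, BLVRA and BLVRB, all with negative differences from control with both chelators. CPOX and HMOX2 were picked by their values as well as by the core, and neither was called. Capitals mark ACGTG on either strand. CPOX lies at chr3:98593612-98593861 on the minus strand, with the core on the printed strand 227 bases before the start. HMOX2 lies at chr16:4474486-4474735 on the plus strand, with the core 118 bases before the start and a palindromic pair, read once on each strand and overlapping, at 28 and 27 bases before it.
CPOX: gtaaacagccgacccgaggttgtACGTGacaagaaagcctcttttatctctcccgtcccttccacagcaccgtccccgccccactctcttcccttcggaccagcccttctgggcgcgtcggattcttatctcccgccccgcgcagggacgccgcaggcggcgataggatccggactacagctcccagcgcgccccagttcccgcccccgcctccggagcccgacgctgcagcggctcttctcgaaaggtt
HMOX2: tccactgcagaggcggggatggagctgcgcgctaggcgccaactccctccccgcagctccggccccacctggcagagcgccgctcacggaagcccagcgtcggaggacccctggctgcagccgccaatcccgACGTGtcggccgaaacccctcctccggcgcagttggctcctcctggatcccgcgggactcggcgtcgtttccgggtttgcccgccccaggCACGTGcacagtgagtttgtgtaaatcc
Both are 250 bases from RefSeq on GRCh38.p14, written 5′ to 3′. A match is a run of letters and no evidence of binding.

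HMOX1, the inducible haem oxygenase that opens the ring and frees iron, had the largest Dp44mT difference of the 33 genes and did not pass the test. Its normalized value was 7.25 and 8.32 with Dp44mT, 6.28 and 7.14 with DFO, and 5.93 and 6.0 in control. The deposited intensities were 148 and 170 with Dp44mT, 68.7 and 99.2 with DFO, and 51.7 and 56.9 in control, so the order of the groups was the same before normalization, on both dim arrays too. The Dp44mT level was 3.51-fold that of control (log2 difference 1.81, SE 0.45, interval 0.66 to 2.96, limma adjusted p = 0.0970), and the sets differed, with 1.31 in set 1 and 2.31 in set 2. The DFO level was 1.67-fold (log2 difference 0.74, interval −0.41 to 1.89, adjusted p = 0.573).

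HMOX2, the constitutive haem oxygenase, had a narrower spread: 9.83 and 9.97 with Dp44mT, 9.69 and 9.85 with DFO, and 9.16 and 9.17 in control. The chelator arrays lay above both control arrays, 1.66-fold with Dp44mT (SE 0.17, limma adjusted p = 0.0868) and 1.51-fold with DFO (adjusted p = 0.245). A further HMOX2 probe set gave log2 differences of 0.76 and 0.40. On the deposited scale the Dp44mT difference of HMOX2 was 0.01. The biliverdin reductases, which act after the oxygenases, had mean differences below 0. BLVRA had 9.63 and 9.34 with Dp44mT, 9.67 and 9.53 with DFO, and 9.84 and 9.79 in control, with differences of −0.33 and −0.21. BLVRB differed by −0.22 with Dp44mT, where its arrays overlapped control, and by −0.49 with DFO. For both reductases the 95% interval held 0 with either chelator. None of the 4 breakdown genes passed the test.

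**Figure D2:**
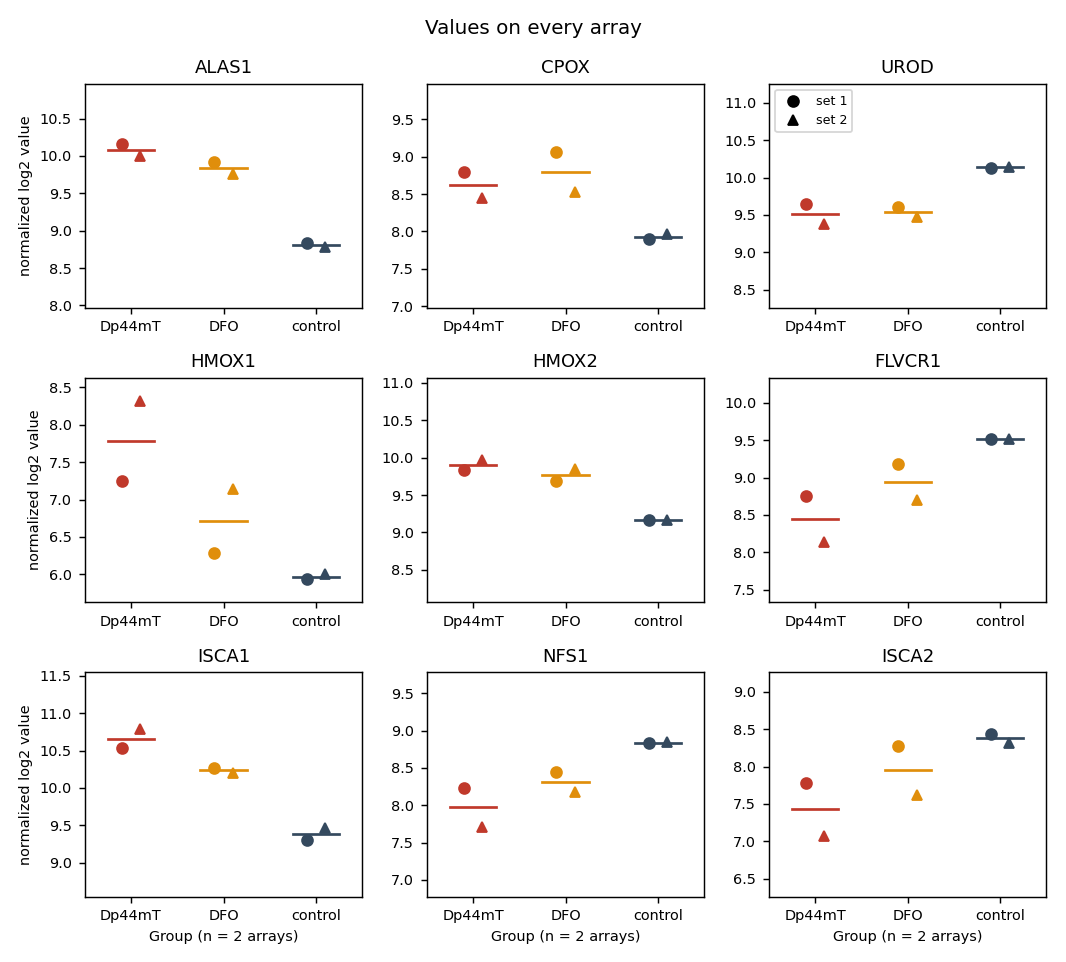
Normalized log2 value on every array for 9 genes (Dp44mT, DFO and control from left to right), with circles for set 1, triangles for set 2 and lines at the mean of 2 arrays. The vertical axes share a span of log2 units but not a range. In ALAS1, CPOX, HMOX1, HMOX2 and ISCA1 the 4 chelator arrays lie above both control arrays, and in UROD, FLVCR1, NFS1 and ISCA2 they lie below.

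Among the carriers, FLVCR1, a choline transporter of the plasma membrane long described as a haem exporter, was furthest from control with Dp44mT, and SLC25A28 was with DFO. FLVCR1 had 8.75 and 8.14 with Dp44mT, 9.19 and 8.69 with DFO, and 9.51 and 9.52 in control. The 4 chelator arrays lay below control, 2.10-fold lower with Dp44mT (log2 difference −1.07, SE 0.29, interval −1.80 to −0.34, limma adjusted p = 0.110), with a difference of −0.58 for DFO (interval −1.31 to 0.15, adjusted p = 0.482). A further probe set gave −1.19 and −0.50. ABCB10, an inner membrane transporter linked to haem synthesis, had a Dp44mT difference of −0.86 and a DFO difference of −0.45.

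The mitochondrial iron importers SLC25A37 and SLC25A28 had Dp44mT differences of −0.07 and −0.50 and DFO differences of −0.24 and −0.72. For SLC25A28 the probe sets disagreed: another of its 3 had 6.51 and 8.96 with Dp44mT, 6.77 and 8.50 with DFO, and 6.96 and 6.03 in control, opposite in sign and high on the set 2 chelator arrays. SLC25A38, the glycine carrier that feeds haem synthesis, differed by 0.38 and 0.11, and ABCB6, described as a porphyrin transporter, by 0.41 and −0.03. Of the 6 carriers, 0 passed the test in either comparison, and their medians were −0.28 with Dp44mT and −0.34 with DFO.

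ISCA1, an A-type carrier that acts late in the mitochondrial pathway to make [4Fe-4S] clusters, was the cluster assembly gene that passed. Its upstream bases are shown for that reason. They lie at chr9:86282539-86282788 on the minus strand of GRCh38.p14, 5′ to 3′. Capitals mark GCGTG (printed first as its complement on the opposite strand, 241 bases before the start, then on this strand 185 before it) and TGAGNNNGC 32 bases before it.
ISCA1: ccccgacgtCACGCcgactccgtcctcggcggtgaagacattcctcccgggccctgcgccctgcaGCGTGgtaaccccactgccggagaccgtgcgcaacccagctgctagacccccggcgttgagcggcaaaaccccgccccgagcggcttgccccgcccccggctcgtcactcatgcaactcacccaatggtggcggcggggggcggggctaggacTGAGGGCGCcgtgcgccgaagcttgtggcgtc
The normalized value of ISCA1 was 10.53 and 10.78 with Dp44mT, 10.27 and 10.20 with DFO, and 9.31 and 9.46 in control. The groups did not overlap. The level was 2.42-fold that of control with Dp44mT (log2 difference 1.27, SE 0.18, interval 0.81 to 1.74, limma adjusted p = 0.0367) and 1.80-fold with DFO (difference 0.85, interval 0.39 to 1.31, adjusted p = 0.153). Its other probe sets had the same sign, with 0.72 and 1.01 for Dp44mT and 0.68 and 0.75 for DFO.

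ISCA1 shares the dependence on scaling. Its deposited intensities were 1654 and 953 with Dp44mT, 1670 and 819 with DFO, and 735 and 961 in control, so on the dim set 2 chelator arrays they were no higher than on the set 2 control array. Within set 1 the normalized difference was 1.22 with Dp44mT and 0.96 with DFO. On the deposited scale the Dp44mT difference was 0.57 (limma adjusted p = 0.618) and with array medians subtracted 0.94 (adjusted p = 0.216), and leaving out any 1 array ended the call, with adjusted p of 0.0630 to 0.320. RefSeq lists 7 pseudogenes of ISCA1, and which of these copies the probes also read was not tested.

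ISCA2, the partner of ISCA1 in the same step, lay on the other side of control. It had 7.78 and 7.08 with Dp44mT, 8.28 and 7.62 with DFO, and 8.44 and 8.32 in control. All chelator arrays were lower, by 1.93-fold with Dp44mT (log2 difference −0.95, interval −1.81 to −0.09, limma adjusted p = 0.177), with −0.43 for DFO (adjusted p = 0.656). IBA57, the third protein of the step, had 7.49 and 8.13 with Dp44mT, 7.46 and 8.17 with DFO, and 7.35 and 6.93 in control. Its mean difference was 0.67 in both comparisons, made of 0.15 in set 1 and 1.20 in set 2 with Dp44mT, and one of its other 3 probe sets had −0.27 with Dp44mT.

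At the start of the pathway, NFS1, the cysteine desulfurase that gives the sulfur, had 8.24 and 7.71 with Dp44mT, 8.44 and 8.18 with DFO, and 8.83 and 8.85 in control. The 4 chelator arrays lay below control, 1.82-fold lower with Dp44mT (SE 0.24, limma adjusted p = 0.117), with a difference of −0.53 for DFO (adjusted p = 0.445), and a further probe set gave −0.83 and −0.57. Its partner LYRM4, which stabilises NFS1, differed by −0.49 and −0.41. The scaffold ISCU, on which the cluster forms, had 11.63 and 11.45 with Dp44mT, 11.48 and 11.37 with DFO, and 11.68 and 11.61 in control, differences of −0.11 and −0.22. FDX1, an electron donor of the ferredoxin family, had −0.54 with Dp44mT and −0.25 with DFO.

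HSPA9, the mitochondrial HSP70 that with its partner HSCB releases the cluster from the scaffold, had 12.26 and 12.10 with Dp44mT, 11.99 and 11.93 with DFO, and 11.67 and 11.57 in control. The chelator arrays were above control (Dp44mT difference 0.56, interval 0.14 to 0.99, limma adjusted p = 0.132; DFO difference 0.34, adjusted p = 0.479), while its other 3 probe sets ran from −0.08 to 0.97 with Dp44mT. HSCB itself had −0.25 and −0.24. The carriers after it, GLRX5, NFU1 and BOLA3, had Dp44mT differences of −0.44, −0.82 and −0.34 and DFO differences of −0.34, −0.57 and −0.08. The 12 mitochondrial assembly genes thus had 3 above control (ISCA1, IBA57 and HSPA9) and 9 below in both comparisons, with medians of −0.39 with Dp44mT and −0.25 with DFO, and 1 called, with Dp44mT.

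Over its 4 members tested, the cytosolic pathway, which equips cytosolic and nuclear proteins with clusters, had the median nearest 0 of the 5 roles in both comparisons. CIAPIN1, its electron transfer protein, had 10.97 and 10.74 with Dp44mT, 10.81 and 10.74 with DFO, and 10.81 and 10.73 in control. The groups overlapped, with differences of 0.08 for Dp44mT (interval −0.36 to 0.53) and 0.01 for DFO (interval −0.44 to 0.45). The scaffold protein NUBP1 differed by −0.18 and −0.25, and the targeting factors CIAO1 by −0.20 and −0.18 and MMS19 by 0.15 and −0.05. For CIAO1 the other probe sets lay lower, at −0.73 and −0.80 with Dp44mT and −0.49 and −0.51 with DFO. The 4 genes had medians of −0.05 and −0.12 and none was called. Cytosolic factors outside the members were not all so near 0. CIAO2A had −0.94 with Dp44mT (limma adjusted p = 0.109) and −0.37 with DFO, its 4 chelator arrays below control. With Dp44mT, CIAO2B had 0.11, CIAO3 −0.21, NDOR1 −0.21 and GLRX3 −0.02.

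**Figure D3:**
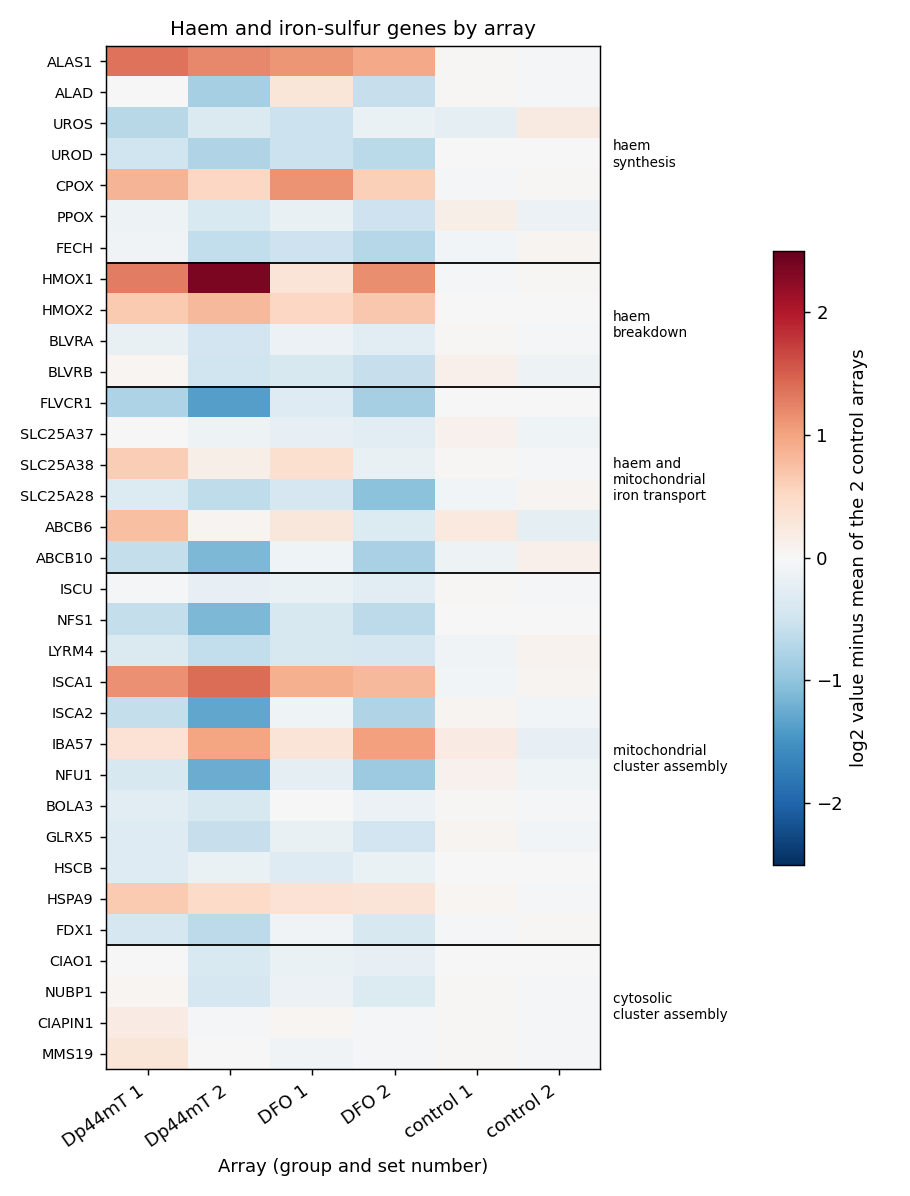
Normalized log2 value of the 33 genes on each of the 6 arrays minus the mean of the 2 control arrays, in columns Dp44mT, DFO and control, with red above and blue below control and black rules between roles. ALAS1, HMOX2 and ISCA1 are red on all 4 chelator arrays, HMOX1 is darkest at set 2 of Dp44mT, and the mitochondrial assembly rows are mostly blue, more so on the set 2 arrays.

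Set against each other, the chelators gave 0 of 33 members past the test, beside 0.00% of all genes, and 0 members against 718 of all genes at an unadjusted p under 0.05 in limma. The doses differ, and DFO and Dp44mT differ in entry into cells. HMOX1 was 2.10-fold higher with Dp44mT than with DFO (log2 difference 1.07, interval −0.08 to 2.22, limma adjusted p = 0.922). For ALAS1 the difference was 0.25 (interval −0.19 to 0.68) and for ISCA1 0.42 (interval −0.04 to 0.89). Each of these intervals holds 0 and reaches to a further difference of 0.68 or more, so they do not show that the chelators act alike. Within sets the difference was 0.96 in set 1 and 1.18 in set 2 for HMOX1, 0.24 and 0.25 for ALAS1, and 0.26 and 0.59 for ISCA1. On the deposited scale it was 0.82 for HMOX1, 0.10 for ISCA1 and −0.10 for ALAS1. The Dp44mT arrays lay wholly above the DFO arrays for 6 members and below for 2, where 14.4% and 13.1% of all genes did so.

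Probe sets other than the one used for a gene were available for 18 of the 33 genes, 36 in all above the filter. Their difference had the sign of the one used for 26 of 36 with Dp44mT and 30 of 36 with DFO, and none of the 36 passed the test in a limma fit over probe sets. In the main fit, with 1 probe set per gene, 3.37% of all genes were called with Dp44mT and 1.10% with DFO. The lack of calls among the 36 is therefore not read as a result about these probe sets. In the limma fit over probe sets the Dp44mT call of ALAS1 held (adjusted p = 0.0482) and that of ISCA1 was lost (adjusted p = 0.0540).

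**Figure D4:**
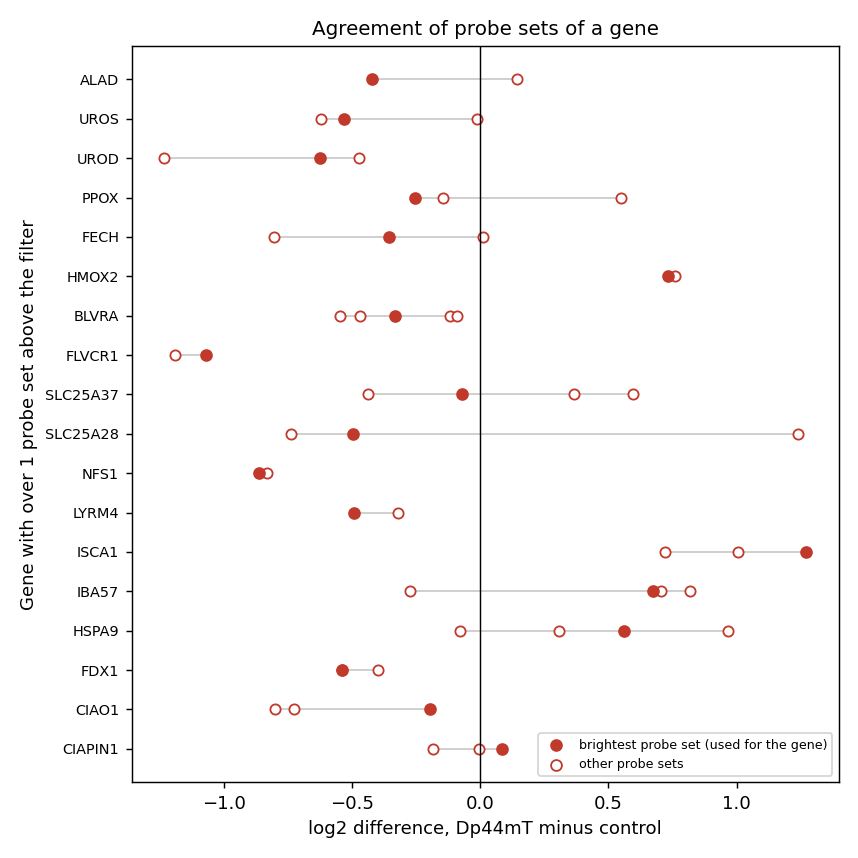
Log2 difference of Dp44mT minus control for every probe set above the filter of the 18 genes with more than 1, with the probe set used for the gene filled and the others open. As examples, the probe sets of HMOX2, UROD, FLVCR1, NFS1 and ISCA1 lie on 1 side of 0, and those of SLC25A28 and IBA57 lie on both. In all, 10 of the 36 other probe sets had the opposite sign to the one used.

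Genes that sense haem or control its synthesis were also measured. Of 6 tested (of 7 listed), 2 passed with Dp44mT and 1 with DFO, all higher, where 1.91% and 1.04% of all genes were called higher. The list was chosen with earlier results of these data known, so its counts beside these shares are no test of the list. BACH1, a repressor that binds haem and holds down HMOX1, had 9.55 and 9.34 with Dp44mT, 9.01 and 8.86 with DFO, and 7.87 and 7.85 in control, 3.0-fold of control with Dp44mT (log2 difference 1.59, SE 0.18, limma adjusted p = 0.0230) and 2.10-fold with DFO (adjusted p = 0.0834). PPARGC1A, a coactivator that raises Alas1 in mouse liver, had 7.22 and 7.37 with Dp44mT, 7.95 and 7.93 with DFO, and 6.08 and 5.98 in control. It was 2.41-fold of control with Dp44mT (adjusted p = 0.0301) and 3.76-fold with DFO (adjusted p = 0.0181). On the deposited scale none of these calls held, with adjusted p of 0.423 for BACH1 and 0.433 for PPARGC1A with Dp44mT and 0.585 for PPARGC1A with DFO, at differences of 0.93, 0.84 and 1.76. With the mean of a gene's probe sets these calls were lost too, at differences of 0.82 for BACH1 (adjusted p = 0.0958) and 0.79 for PPARGC1A (adjusted p = 0.128) with Dp44mT and 1.07 for PPARGC1A with DFO (adjusted p = 0.149). Leaving out any 1 array of the groups compared ended each of these calls. The differences were then 1.48 to 1.69 for BACH1 and 1.19 to 1.34 for PPARGC1A with Dp44mT, and 1.86 to 1.96 for PPARGC1A with DFO. In a limma fit of only the 2 groups compared, the BACH1 call held (adjusted p = 0.0460). Both PPARGC1A calls were lost in it, with adjusted p of 0.0566 with Dp44mT and 0.0555 with DFO. NFE2L2, an activator of HMOX1, had log2 differences of 0.94 with Dp44mT (adjusted p = 0.0573) and 0.62 with DFO, and EIF2AK1, the haem-regulated kinase, −0.45 and −0.27.

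The neighbouring lists gave no call in limma. Over all genes 3.37% were called with Dp44mT and 1.10% with DFO. Of 19 other pathway genes tested (of 24 listed), 0 were called with either chelator. An unadjusted p under 0.05 was found for 5 with Dp44mT and 1 with DFO, beside 4061 and 2250 of all 16868 genes. The median differences were −0.02 with Dp44mT and −0.25 with DFO. LYRM7, an assembly factor of respiratory complex III, had −1.08 with Dp44mT (adjusted p = 0.0961) and CIAO2A, a cytosolic cluster factor, −0.94 (adjusted p = 0.109). BOLA1, a cluster assembly partner of GLRX5, had −1.22 with Dp44mT and COX10, which makes haem O, 0.62. Of 23 proteins that carry clusters (of 27 listed), 0 were called. Here 5 with Dp44mT and 0 with DFO had an unadjusted p under 0.05, beside the same 4061 and 2250 of all genes. The medians were −0.20 and −0.10. The 4 smallest p with Dp44mT belonged to BRIP1, a DNA helicase (−1.62), ABCE1, which recycles ribosomes (−0.84), NDUFV2 of respiratory complex I (−0.61) and LIAS, lipoate synthase (−1.29), with adjusted p from 0.116 to 0.154.

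The 250 bases upstream of the start were read for the 30 members with a RefSeq promoter entry, not for UROS, HMOX1, SLC25A37 or NUBP2. Both strands were searched for the hypoxia cores ACGTG and GCGTG, which differ in 1 letter, for the antioxidant cores TGACNNNGC and TGAGNNNGC, for the amino acid response core TGATGNAA and for the site of the factor NRF1. ACGTG was in 9 of 30 members (30%, against 18.5% of 35116 promoters), GCGTG in 17 (56.7%, against 32.2%), TGACNNNGC in 3 (10%, against 10.9%), TGAGNNNGC in 6 (20%, against 14.8%), TGATGNAA in 1 (3.33%, against 3.14%) and the NRF1 site in 0 (against 1.03%). The 35116 are all promoter entries, neither reduced to 1 per gene nor limited to the genes tested, while each member was read once. GC content was not matched, and no match says only that the letters are not in this window.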

How the data were processed

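The authors deposited a linear intensity for each probe set, and the submitters' processing notes name Affymetrix Expression Console 1.1. The summarization and scaling steps are not given in the sources used here. The arrays were U133 Plus 2.0, labelled from total RNA, and no other per-sample columns were found (0). Because array medians differed from 49.9 to 88.9, log2(intensity + 16) values were quantile normalized over the 6 arrays (limma 3.58.1, R 4.3.3). Symbols came from the platform annotation, 1 for 41097 probe sets, several for 1801 and none for 11777. A gene took its brightest probe set, and genes below the 25th percentile (5.55) were left out.

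Groups were compared with limma's moderated test over all genes, 2 arrays per group (3 residual and 2.23 prior degrees of freedom), p-values adjusted by Benjamini-Hochberg. With so few arrays the 95% intervals had a median half-width of 0.64 on the log2 scale, and an exact permutation test of 2 against 2 cannot give a two-sided p under 0.333. Members and lists were chosen with earlier results of these data known. Members named in full are those called, those with both arrays of a chelator over 0.5 outside both controls, and the brightest of each role. The alternatives were the deposited scale, array medians subtracted, linear scaling, other pseudocounts (1 and 64), other filters, other probe set rules, a fit of only the groups compared, a mean-variance trend, a replicate block, and arrays left out. The test was tested on simulated data. Upstream bases are from RefSeq, GRCh38.p14.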

Additional observations from a re-analysis of the deposited data

How the results depend on the processing

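The count of members called and the median of the members are the values that moved. With Dp44mT 2 were called in the normalized data, 0 on the deposited scale, 0 with array medians subtracted, 1 in the fit over probe sets (ISCA1 lost), 0 with only the 2 groups compared, 4 with a mean-variance trend (HMOX2 and HSPA9 added) and 0 with any 1 array left out. Without both set 2 chelator arrays 2 were called, ALAS1 and HMOX1 (limma adjusted p = 0.0454). With DFO 0 were called except for 2 (ALAS1 and ISCA1) with a mean-variance trend. Over all genes Dp44mT gave 569 calls, against 66 on the deposited scale, 303 with medians subtracted, 919 with a pseudocount of 64, 1264 with the trend and 0 to 404 with 1 array left out. DFO gave 185, against 26, 98, 399 with the trend, 61 with only the 2 groups compared, 0 to 61 with 1 array left out and 0 without both set 2 chelator arrays. The member median with Dp44mT was −0.25, against −0.86 on the deposited scale (all genes −0.50), −0.48 with array medians subtracted, −0.021 without both set 2 chelator arrays and −0.39 to −0.021 with 1 array left out. With DFO it was −0.24, against −0.58 (all genes −0.32) on the deposited scale and −0.28 to −0.14 with 1 array left out. The Dp44mT minus DFO median was 0.00, against −0.29 on the deposited scale. No named result reversed past its test, and on the deposited scale 4 uncalled members with Dp44mT, 3 with DFO and 13 in Dp44mT minus DFO (ALAS1 among them) changed sign. The fits with 1 array left out take the lone array to vary like the other groups. Leaving out either array of the group not compared gave the same fit as only the 2 groups compared. The 19 alternatives of a comparison are therefore not all distinct. ALAS1 with Dp44mT was called under 10 of 19 alternatives and ISCA1 under 8, and their differences stayed above 0 in all 19, at 0.59 to 1.35 and 0.57 to 1.40. BACH1 was called under 12 and PPARGC1A under 9 with Dp44mT, and PPARGC1A under 9 with DFO. The cause was not tested.

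Set numbers were shared between groups, but deviations from the group means correlated at −0.25 for control and DFO, −0.35 for control and Dp44mT and 0.84 for DFO and Dp44mT, so set numbers moved together between the chelators and not with control, and the labels do not say what a set is. They were therefore not used as pairs in the main test, and the differences given within a set are descriptive only. With a replicate block the members called were 2 with Dp44mT and 0 with DFO, and over all genes 907 and 169. In Dp44mT minus DFO it gave 0 calls, with limma adjusted p of 0.633 for HMOX1 and ISCA1 and 0.659 for ALAS1.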
